A study of Mus musculus with 27 samples.

Results

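Cytokinesis is the last step of cell division, in which a contractile ring pinches the cell and the remaining bridge is cut. The genes examined here are 9 that build or steer this step: Racgap1, Kif23, Ect2, Prc1, Kif20a, Kif20b, Anln, Cit and Cep55. They were chosen by symbol, through the platform annotation of the array's probe sets, with earlier results of these data known. All 9 were among the 18193 genes measured, and all 9 stayed in when the 40% of genes with the lowest mean signal were left out, which kept 10916 genes for testing.

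At the end of mitosis, antiparallel microtubules are bundled into a central spindle by Prc1 and by centralspindlin, a complex of the kinesin Kif23 and the GTPase-activating protein Racgap1. Centralspindlin brings in Ect2, the exchange factor that loads RhoA with GTP, and RhoA then drives an actomyosin ring that the scaffold protein Anln and the kinase Cit hold in place. Kif20a and Kif20b are kinesins of the midzone, and Cep55 recruits the ESCRT proteins that cut the bridge. Erythroblasts of the foetal liver divide several times while they mature and then expel the nucleus, a step that also uses an actomyosin ring and has been compared to an asymmetric division.

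Cells were taken from mouse foetal livers (E14.5), and total RNA was measured after 0, 24 or 48 h of culture in medium rich in serum. The wild type (WT) had 3, 2 and 2 arrays at these times and the knockout of p107 (p107KO; p107 is the product of Rbl1) had 2, 2 and 1. The knockout of Rb1 (Rb1KO) had 5, 4 and 2 arrays, and the knockout of both genes (DKO) had 2, 1 and 1. Rb1 and p107 are pocket proteins, which hold E2F transcription factors in check. The labels do not say whether arrays of a group came from different embryos, so p-values measure the spread between these arrays, which may be technical. The sources used here do not give which part of either gene was altered.

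The labels were checked on the targeted genes. Rbl1 was at 70.3 to 167.5 (MAS5 signal) on all p107KO arrays and at 84.5 to 122.7 on all DKO arrays, against 798 to 1746 in WT. Rb1 fell in Rb1KO against WT at 0 h (log2 change -1.66 ± 0.18 SE, limma adjusted p = 1.17e-05) and 24 h (-1.37 ± 0.21 SE, limma adjusted p = 2.08e-04). At 48 h it did not differ past the threshold (-0.36 ± 0.24 SE, limma adjusted p = 0.410), so its signal does not check the labels of that time. In DKO, Rb1 was at 1377 and 1662 at 0 h and at 4600.0 on the 24 h array. The array labelled DKO at 48 h gave 5994, within the WT values of that time (5746 and 6583) and above p107KO (5314). It also lay above both Rb1KO arrays of 48 h (4207 and 5453). Rb1 did not separate Rb1KO from WT at 48 h, so this label is not checked by Rb1. Genes on the Y chromosome gave signal on all 4 DKO arrays, 3 of the 11 from Rb1KO, 2 of the 5 from p107KO and 0 of the 7 from WT. The 4 arrays called apart below had the lowest median correlations with others of their time at 0 h and 24 h. At 0 h this was the fifth Rb1KO array (0.954, the rest 0.969 or more). At 24 h they were the first Rb1KO (0.937), the first p107KO (0.947) and the only DKO array (0.952). The rest of 24 h gave 0.956 or more, so the DKO array lay near them. No cut-off was set, and all 48 h arrays (0.943 to 0.955) were kept. All 4 are knockout arrays, and leaving them out added more calls than it ended. Results that use them are given with and without them where the call differs. Of 10 erythroid markers 7 were measured, and their summed signal ran from 106144 to 280727 over all arrays, with Hba-a1 under 32 in 5 of the 12 groups. The 5 hepatocyte markers measured summed to between 124220 and 175942 at 0 h and to between 2745 and 39945 in culture.

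The start of each gene was also examined, whether or not the gene moved with the others. RefSeq promoter windows on build GRCm38.p6, from 250 bases before to 50 bases after a transcription start, were found for 8 of the 9 genes, and Kif20a was not matched. Each was searched on both strands for 3 kinds of motif: the cell cycle genes homology region (CHR, TTTGAA or TTCGAA), the CCAAT box (CCAAT) and E2F sites (TTTGGCGC, TTTCCCGC, TTTGCCGC or TTTCGCGC). In the stretches below, given 5′ to 3′ on the gene's strand, capitals mark TTTGAA or CCAAT, read as TTCAAA or ATTGG where the motif lies on the other strand. In the windows searched, the first 4 genes hold both a CHR and a CCAAT box, the next 3 hold a CHR with no CCAAT box, and Cit holds neither.

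Racgap1, chr15:99651644-99651673, minus strand: ctgtgATTGGctggtgcgtgatTTTGAAcc
Kif23, chr9:61946784-61946813, minus strand: gccgctgATTGGcctgTTTGAAatgcgccg
Prc1, chr7:80294402-80294455, plus strand: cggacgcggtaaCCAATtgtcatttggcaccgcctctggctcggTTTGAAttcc
Ect2, chr3:27153923-27153999, minus strand: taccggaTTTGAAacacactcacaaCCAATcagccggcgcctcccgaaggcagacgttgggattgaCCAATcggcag
Anln, chr9:22389165-22389194, minus strand: gcgctgaaaTTCAAAtTTTGAAcggccgtg
Kif20b, chr19:34922356-34922385, plus strand: ccgccattgTTTGAATTTGAAaaccgggag
Cep55, chr19:38054996-38055025, plus strand: acagccgcgggaTTCAAActcccggaagcg
Cit, chr5:115845536-115845655, plus strand: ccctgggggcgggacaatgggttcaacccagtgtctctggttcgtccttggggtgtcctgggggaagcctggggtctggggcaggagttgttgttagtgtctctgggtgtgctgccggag

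The Cit stretch is the 120 bases before the transcription start of its window. The windows of Cit and Ect2 lie wholly inside the annotated genes (chr5:115845224-116008953 and chr3:27097222-27154253). The outer start of either gene was therefore not searched. TTTGAA was present in 7 of the 8 genes, against 20.2% of the 27025 genes that have a window (17.9% of 32851 windows). CCAAT was present in 4 of the 8 genes, against 41.1% of all genes, and an E2F site in 0 of the 8, against 2.61% of all genes. TTCGAA was present in none of the 8 and in 1.80% of all genes. Such a match is a description of the letters and does not show binding.

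During culture of WT cells, most of the 9 genes fell between 24 and 48 h. From 24 h to 48 h 6 of the 9 genes fell (Racgap1, Prc1, Anln, Ect2, Kif23 and Kif20a), by 1.89-fold to 2.50-fold, and Cep55 rose 1.90-fold. In that comparison 25.2% of all genes tested passed the threshold, 12% as a fall. The median change of the 9 genes was -1.13 on the log2 scale, beside 0.029 over all genes tested. All fold changes and log2 changes are of signal + 32. In these bulk samples, fewer dividing cells and less RNA per cell cannot be told apart.

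**Figure D1:**
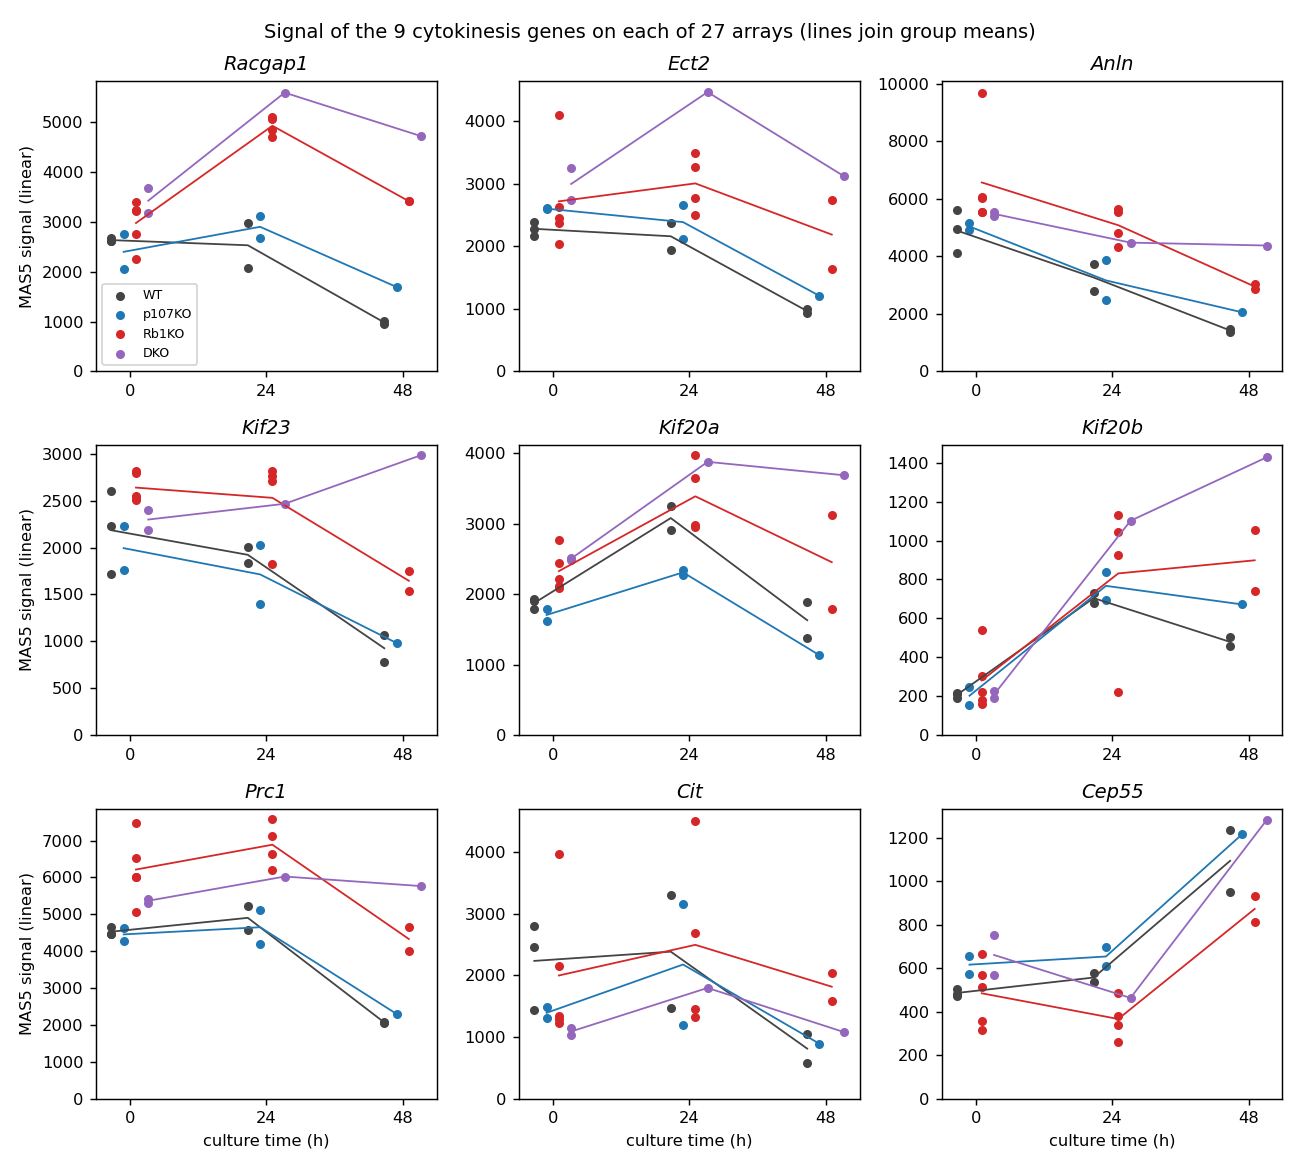
MAS5 signal of each of the 9 genes (linear axis from 0) against culture time in hours, 1 point per array, coloured by genotype and shifted slightly sideways so that genotypes do not cover each other; lines join the group means. At 48 h the WT points of Racgap1 (942 and 1019) lie below the Rb1KO points (3415 and 3422), and Cep55 is the gene whose 48 h points lie above its earlier ones in every genotype.

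Racgap1, the GTPase-activating subunit of centralspindlin, gave 2676, 2612 and 2620.5 in WT at 0 h, 2980.5 and 2084 at 24 h, and 942 and 1019 at 48 h. The 48 h arrays lay far below both earlier groups, which overlapped each other. The fall after 24 h was 2.50-fold (log2 change -1.32 ± 0.19 SE, limma adjusted p = 5.45e-05). Kif23, the motor subunit, gave 2231, 1718 and 2604 at 0 h, 2006 and 1839 at 24 h, and 1072 and 780 at 48 h. It fell by 1.04 on the log2 scale after 24 h, with no overlap between the groups (limma adjusted p = 0.00179). Ect2 gave 2390, 2172 and 2283 at 0 h, 2379 and 1944.5 at 24 h, and 994 and 933 at 48 h, again with the last group below the others (-1.13 ± 0.25 SE, limma adjusted p = 0.00246).

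Prc1, which crosslinks the antiparallel microtubules, gave 4461, 4465 and 4667 at 0 h, 5239 and 4572 at 24 h, and 2073 and 2066 at 48 h. Both 48 h arrays lay below all earlier ones, and the fall of 2.34-fold after 24 h had the smallest adjusted p of the 9 genes (log2 change -1.23 ± 0.16 SE, limma adjusted p = 2.29e-05). Kif20a, which carries Plk1 to the midzone, gave 1931, 1899.7 and 1790.3 at 0 h, 3251 and 2907 at 24 h, and 1372 and 1887 at 48 h. It rose first (0.71 ± 0.19 SE, limma adjusted p = 0.00641, and 0.0702 without WT 24 h replicate 1) and then fell to values that overlapped those of 0 h (-0.92 ± 0.21 SE, limma adjusted p = 0.00310, and 0.0652 without WT 48 h replicate 1). Kif20b, a kinesin of the midzone and midbody, gave 192, 212 and 218 at 0 h, 677 and 731 at 24 h, and 502 and 456 at 48 h. All WT arrays in culture lay above all those at 0 h, and the rise to 24 h was 3.08-fold (1.62 ± 0.46 SE, limma adjusted p = 0.00847, and 0.0602 without WT 24 h replicate 2). Over these first 24 h 3 of the 9 genes passed, Kif20a and Kif20b upward and Anln downward, beside 36.9% of all genes tested, and 1 did without WT 24 h replicate 2.

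Anln, the scaffold that ties RhoA, actin, myosin and septins together, fell at both steps in WT. It gave 5597, 4124 and 4950.5 at 0 h, 3734.5 and 2788 at 24 h, and 1473 and 1367 at 48 h, and none of the 3 groups overlapped. The first fall was -0.58 ± 0.22 (SE, limma adjusted p = 0.0376) and the second -1.17 ± 0.24 (SE, limma adjusted p = 0.00114). The first had a limma adjusted p of 0.132 without WT 0 h replicate 1, of 0.0768 without WT 0 h replicate 3 and of 0.341 without WT 24 h replicate 2. A second, dimmer Anln probe set did not show the later fall (0.041 ± 0.28 SE, limma adjusted p = 0.937). Cep55, the recruiter of the abscission proteins, gave 472, 506 and 481 at 0 h, 578 and 536 at 24 h, and 1236 and 951 at 48 h. Its 48 h arrays were the highest of the WT, opposite to the 6 genes that fell (0.92 ± 0.28 SE, limma adjusted p = 0.0187), though leaving out WT 48 h replicate 1 (0.151), WT 24 h replicate 1 (0.0582) or WT 24 h replicate 2 (0.108) took the limma adjusted p past 0.05.

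Markers of other blood cells rose over the same step. From 24 h to 48 h in WT, 5 of 5 megakaryocyte, 4 of 6 neutrophil, 4 of 6 macrophage and 3 of 5 hepatocyte markers rose, while 1 of 6 erythroid markers fell, beside 25.2% of all genes tested (12% downward). The summed megakaryocyte signal went from 10725 to 17109 at 24 h to 44979 to 47700 at 48 h, the neutrophil sum from 116596 to 150975 to 226938 to 232585, and the macrophage sum from 5854 to 9006 to 12652 to 20108. The hepatocyte sum, at 7033 to 7062 in WT at 24 h, was 10082 to 39945 at 48 h. Over the first 24 h in WT, 5 of 6 erythroid and 2 of 6 neutrophil markers rose, beside 36.9% of all genes tested. In the same step 5 of 5 hepatocyte, 4 of 5 megakaryocyte and 3 of 6 macrophage markers fell. The part of these markers in the changes of the cytokinesis genes was not tested.

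In Rb1KO the genes also changed with culture, in a partly different order. From 0 h to 24 h 3 of the 9 rose, beside 51% of all genes tested (20.4% upward): Kif20b, Racgap1 and Kif20a. Racgap1 ran from 2252 through a median of 3229 to 3403.5 on the 5 arrays at 0 h and gave 5107, 4711, 5067 and 4851 at 24 h, so every 24 h array lay above every 0 h array (0.74 ± 0.13 SE, limma adjusted p = 5.34e-05). Its second probe set gave 0.20 for this step (limma adjusted p = 0.114). Without the 4 arrays apart 5 of the 9 rose, Ect2 (0.41, limma adjusted p = 0.0235) and Prc1 (0.27, limma adjusted p = 0.0282) being added. The Kif20b rise was then 2.13 on the log2 scale in place of 1.37, since Rb1KO 24 h replicate 1 gave 223 against 927, 1129 and 1046 on the other 3 arrays.

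From 24 h to 48 h in Rb1KO 4 of the 9 genes fell (Anln, Prc1, Kif23 and Racgap1) and Cep55 rose, beside 21% of all genes tested (7.57% downward). The falls were -0.77 ± 0.20 for Anln, -0.67 ± 0.14 for Prc1, -0.59 ± 0.19 for Kif23 and -0.52 ± 0.17 for Racgap1 (log2, SE). Cep55, at 261, 338, 380 and 487 at 24 h, gave 933 and 812 at 48 h, with no overlap (1.21 ± 0.24 SE, limma adjusted p = 0.00104). Ect2 (-0.49 ± 0.22 SE, limma adjusted p = 0.122) and Kif20a (-0.50 ± 0.18 SE, limma adjusted p = 0.0556) did not pass, and both did without the 4 arrays apart (limma adjusted p = 0.0189 and 0.0349). The count of 5 was 2 without Rb1KO 48 h replicate 1 and 3 without Rb1KO 24 h replicate 3, and the Kif23 fall passed in 1 of the 6 fits that left out 1 array (limma adjusted p up to 0.271). The second Anln probe set gave 0.024 here (limma adjusted p = 0.963).

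**Figure D2:**
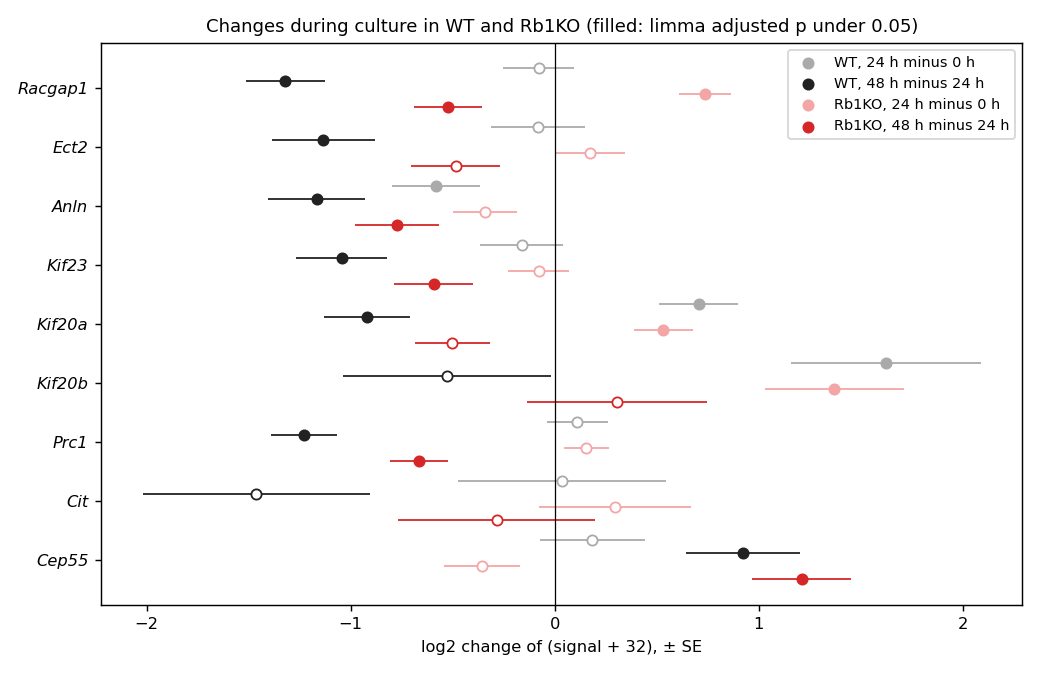
Log2 change of signal + 32 with its standard error for each gene, from 0 h to 24 h and from 24 h to 48 h in WT and Rb1KO; filled points passed a limma adjusted p of 0.05. After 24 h the WT points of 6 genes lie between -1.32 and -0.92 and passed, and Cep55 lies to the right in both genotypes, at 0.92 and 1.21.

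The comparison of Rb1KO with WT asks what differs when Rb1 is lost. Averaged over the 3 culture times, 6 of the 9 genes rose in Rb1KO against WT and none fell, beside 18.9% of all genes tested (10.3% upward). Racgap1 rose most, 1.96-fold, followed by Anln, Prc1, Ect2, Kif23 and Kif20a. The median change of the 9 was 0.49 on the log2 scale, beside -0.073 over all genes tested. Racgap1 changed by 0.97 ± 0.10 (SE, limma adjusted p = 1.81e-07) and Prc1 by 0.66 ± 0.08 (SE, limma adjusted p = 4.34e-06). Anln changed by 0.69 ± 0.12 (limma adjusted p = 2.08e-04), Ect2 by 0.60 ± 0.13 (0.00184) and Kif23 by 0.49 ± 0.11 (0.00320). Kif20a was at the edge of the threshold (0.32 ± 0.11 SE, limma adjusted p = 0.0371). Its adjusted p was 0.0533 when no gene was left out as dim, 0.0604 with only the groups compared in the fit, and 0.05 or more in 10 of the 18 fits that left out 1 array, the highest being 0.186 without Rb1KO 48 h replicate 1.

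The other 3 genes did not pass. Kif20b gave 0.38 ± 0.26 (SE, limma adjusted p = 0.323), and 0.47 without the 4 arrays apart, where it passed (limma adjusted p = 0.0114). Cit gave 0.30 ± 0.28 (SE, limma adjusted p = 0.480). Cep55 was the gene with a negative value, -0.32 ± 0.14 (SE, limma adjusted p = 0.120).

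The comparison was also made at each time in culture. At 0 h, with 3 WT and 5 Rb1KO arrays, 0 of the 9 genes passed in limma, beside 0.614% of all genes tested, and Anln and Prc1 had an unadjusted p under 0.05. Prc1 gave 4461 to 4667 in WT and 6004.5, 6000.1, 5077, 6526 and 7469 in Rb1KO, which did not overlap (0.44 ± 0.12 SE, limma adjusted p = 0.140). Kif20a also did not overlap at 0 h, with 1790.3 to 1931 in WT and 2085 to 2769 in Rb1KO (0.30 ± 0.16 SE, limma adjusted p = 0.774). At 24 h 2 of the 9 passed, Racgap1 (0.98 ± 0.17 SE, limma adjusted p = 6.48e-04) and Prc1 (0.49 ± 0.14 SE, limma adjusted p = 0.0374), beside 7.63% of all genes tested (4.15% upward). The 4 Rb1KO arrays of Racgap1 (4711 to 5107) all lay above both of WT (2084 and 2980.5). Without the 4 arrays apart 5 passed at 24 h, with Anln, Ect2 and Kif23 added. Without WT 24 h replicate 2 none passed, Racgap1 then giving a limma adjusted p of 0.0594 and Prc1 0.306. Leaving out the other WT array gave Prc1 a limma adjusted p of 0.0926, and leaving out Rb1KO 24 h replicate 2, 3 or 4 gave 0.0630, 0.0859 and 0.0518.

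At 48 h the arrays labelled Rb1KO gave higher values than WT for most of the genes. Of the 9 genes 5 rose in Rb1KO against WT, beside 10.4% of all genes tested (7.46% upward), and the median change of the 9 was 1.04 against -0.087 over all genes tested. Racgap1 gave 942 and 1019 in WT and 3422 and 3415 in Rb1KO, a 3.41-fold difference (log2 change 1.77 ± 0.19 SE, limma adjusted p = 1.48e-06). Prc1 gave 2073 and 2066 in WT and 4010.5 and 4652 in Rb1KO (1.05 ± 0.16 SE, limma adjusted p = 1.33e-04). Both pairs of arrays lay well apart. Ect2 gave 994 and 933 in WT and 1639.8 and 2738 in Rb1KO (1.11 ± 0.25 SE, limma adjusted p = 0.00509). Anln gave 1473 and 1367 in WT and 2866 and 3028.5 in Rb1KO (1.04 ± 0.24 SE, limma adjusted p = 0.00514). Kif23 gave 1072 and 780 in WT and 1539 and 1752 in Rb1KO (0.82 ± 0.22 SE, limma adjusted p = 0.0189). In each of these 5 genes both Rb1KO arrays lay above both WT arrays, which is no separate evidence, since the test used the same arrays.

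The remaining 4 genes did not pass at 48 h. Kif20a gave 1372 and 1887 in WT and 3115 and 1790.4 in Rb1KO, which overlapped (0.55 ± 0.21 SE, limma adjusted p = 0.116). This value was 0.15 without Rb1KO 48 h replicate 1 and 0.94 without replicate 2, where it passed (limma adjusted p = 0.0147). Kif20b gave 502 and 456 in WT and 1055 and 742 in Rb1KO, which did not overlap (0.85 ± 0.51 SE, limma adjusted p = 0.344, and 0.0239 without the 4 arrays apart, none of which is a 48 h array). Cit, at 1046 and 581 in WT and 2043 and 1593 in Rb1KO, also did not overlap (1.18 ± 0.56 SE, limma adjusted p = 0.208). Cep55 gave 1236 and 951 in WT and 933 and 812 in Rb1KO, with the lower pair from Rb1KO (-0.31 ± 0.28 SE, limma adjusted p = 0.570). The count of 5 was 3 without WT 48 h replicate 2 and 3 without Rb1KO 48 h replicate 2, and Racgap1 (limma adjusted p = 4.90e-05 and 8.83e-05) and Prc1 (0.00293 and 0.00710) were among the 3 each time.

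**Figure D3:**
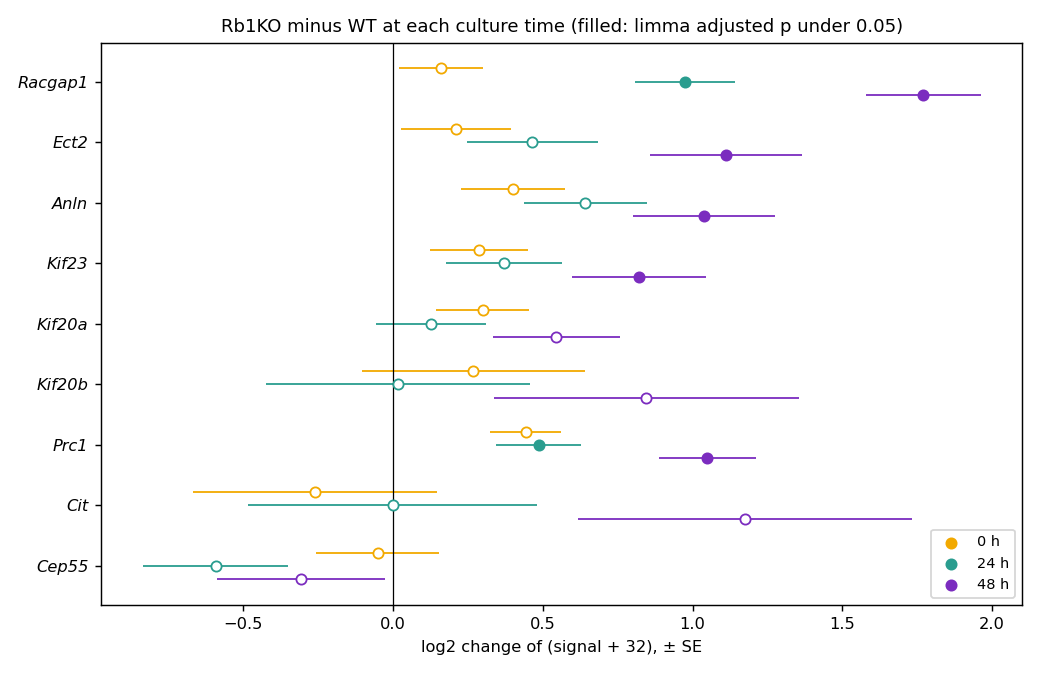
Log2 change of signal + 32 in Rb1KO against WT with its standard error, for each gene at 0, 24 and 48 h; filled points passed a limma adjusted p of 0.05. No 0 h point passed, Racgap1 moves from 0.16 at 0 h to 0.98 at 24 h and 1.77 at 48 h, and the Cep55 points lie left of 0.

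Whether the Rb1KO difference itself grew from 0 h to 48 h was tested as an interaction. Racgap1 was the 1 of 9 genes that passed, with a growth of 1.61 ± 0.24 on the log2 scale (SE, limma adjusted p = 3.28e-04), beside 3.48% of all genes tested (2.66% upward). Ect2 gave 0.90 ± 0.31 (SE, limma adjusted p = 0.132), Anln 0.64 ± 0.29 (0.319) and Prc1 0.61 ± 0.20 (0.111). These 3 passed when the 4 arrays apart were left out (limma adjusted p = 0.0109, 0.0157 and 0.0160). The count was 3 without Rb1KO 0 h replicate 5 alone and 2 without Rb1KO 48 h replicate 1. From 24 h to 48 h 0 of the 9 passed in limma (2, Prc1 and Racgap1, at an unadjusted p under 0.05), beside 0.0458% of all genes tested. The 9 values ran from 0.29 to 1.18, beside a median of 0.040 over all genes tested. With dimmer probe sets Anln gave -0.017 and Cit -0.41, 0.64 and -0.72, while Racgap1, Kif23 and Prc1 stayed above 0.

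Marker sums were set beside these differences too. In Rb1KO against WT averaged over time, 4 of 5 megakaryocyte markers fell, 1 of 5 hepatocyte markers fell, beside 18.9% of all genes tested, and 0 of 6 erythroid, 0 of 6 macrophage and 0 of 6 neutrophil markers passed in limma (0, 0 and 1 at an unadjusted p under 0.05). At 48 h the megakaryocyte sum was 44979 to 47700 in WT and 33008 to 42788 in Rb1KO, and 0 of its 5 markers passed in limma (1 at an unadjusted p under 0.05). The erythroid sum at 48 h was 153352 to 173346 in WT and 141309 to 153900 in Rb1KO. The hepatocyte sum was 10082 to 39945 and 4550 to 16323, with Fgb lower in Rb1KO (-1.71 ± 0.48 SE, limma adjusted p = 0.0231). The part of these cells in the differences was not tested.

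Loss of p107 was examined alone, and loss of Rb1 was examined on top of it. Very few of all genes tested passed for p107 alone, so 0 of 9 is no result particular to these genes. In p107KO against WT averaged over time 0 of 9 passed in limma, beside 0.0183% of all genes tested, and 2 had an unadjusted p under 0.05 (Racgap1 at 0.28 ± 0.12 SE and Kif20a at -0.35 ± 0.13 SE). At 48 h the single p107KO array gave 1693.8 for Racgap1, above both WT arrays and below both Rb1KO arrays, and 1132 for Kif20a, below all of them. In DKO against p107KO, which uses no array of the Rb1KO against WT contrast, 6 of the 9 rose and none fell, beside 7% of all genes tested (4.41% upward). These were Kif20a (0.99 ± 0.15 SE, limma adjusted p = 1.38e-04), Racgap1 (0.98 ± 0.14 SE, limma adjusted p = 5.14e-05), Ect2 (0.82 ± 0.18), Kif23 (0.78 ± 0.16), Prc1 (0.65 ± 0.12) and Anln (0.58 ± 0.17). They are the 6 genes that passed in Rb1KO against WT, and both contrasts share the estimate of the spread. Kif20b (0.54 ± 0.36 SE), Cit (-0.06 ± 0.39 SE) and Cep55 (-0.10 ± 0.20 SE) did not pass.

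The DKO groups at 24 h and 48 h hold 1 array each, and all 4 DKO arrays carried Y-linked signal. The array labelled DKO at 48 h had an Rb1 signal within that of WT. It held the highest value of all 27 arrays for Kif23 (2986), Kif20b (1429) and Cep55 (1282). Racgap1 was at 4725, against 1693.8 on the 48 h array of p107KO, the only one of its group. Leaving out a group's only array also drops that time from the mean over time. Without either 48 h array, DKO against p107KO is thus the mean of 0 h and 24 h. Without either of these 48 h arrays the DKO against p107KO count was 2, Racgap1 (0.73, limma adjusted p = 0.0109 or 0.0111) and Kif20a (0.64, limma adjusted p = 0.0464 or 0.0467). Anln passed in 1 of the 9 fits that left out 1 array, and Ect2 was also lost without DKO 24 h replicate 1 (limma adjusted p = 0.0564). In 4 of 5 hepatocyte markers DKO was also lower than p107KO, and the part of these cells was not tested. In DKO against Rb1KO 0 of 9 passed in limma, beside 0.999% of all genes tested, and 4 had an unadjusted p under 0.05, all higher in DKO (Cep55, Ect2, Kif20a and Racgap1). The largest of the 4 was 0.45 ± 0.17 for Cep55 (SE, limma adjusted p = 0.200). Ect2 passed without Rb1KO 0 h replicate 5 (0.49, limma adjusted p = 0.0461).

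In culture, Kif20b rose in all 4 genotypes, though in DKO the early step was not tested alone. It rose from 0 h to 24 h in WT (1.62), Rb1KO (1.37) and p107KO (1.79 ± 0.51 SE, limma adjusted p = 0.0103), and from 0 h to the mean of both later times in DKO (2.42 ± 0.51 SE, limma adjusted p = 7.99e-04). In p107KO the arrays were at 156 and 248 at 0 h and at 695 and 839 at 24 h, and the rise did not pass without p107KO 0 h replicate 1 (limma adjusted p = 0.108) or p107KO 24 h replicate 2 (0.0584). With Anln, which fell (-0.70 ± 0.24 SE, limma adjusted p = 0.0293), 2 of the 9 passed in p107KO, beside 28.1% of all genes tested. The Anln call was lost without the 4 arrays apart (-0.38, limma adjusted p = 0.150), and without either 0 h array or 24 h replicate 1 (0.0953 to 0.388). In DKO 3 of the 9 rose, Kif20b, Racgap1 (0.59 ± 0.19 SE, limma adjusted p = 0.0225) and Kif20a (0.59 ± 0.21 SE, limma adjusted p = 0.0375), beside 32.1% of all genes tested (13.8% upward). Without DKO 0 h replicate 1 the count was 1, and Kif20a passed in 0 of the 4 fits that left out 1 array (limma adjusted p = 0.0818 to 0.134). Leaving out the 4 arrays apart removes the only DKO 24 h array. The change is then from 0 h to the 48 h array alone. It was 2.61 for Kif20b, 0.46 for Racgap1, 0.55 for Kif20a and 0.94 for Cep55. These values rest on 1 cultured array, so no call is read from them.

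The order of the 12 groups differed between genes. Racgap1 was highest in DKO at 24 h (5600 on 1 array) and Rb1KO at 24 h (4934 ± 187 SD, n = 4) and lowest in WT at 48 h (980.1 ± 54.7 SD, n = 2). Of the 11 pairs of neighbours in its order, 5 overlapped in their arrays. WT at 48 h was the lowest group for Ect2, Anln, Kif23, Prc1 and Cit as well. Kif20a was lowest in p107KO at 48 h (1132 on 1 array). Kif20b was lowest in p107KO at 0 h (202.2 ± 65.1 SD, n = 2), and its 4 lowest groups were those at 0 h. Cep55 was lowest in Rb1KO at 24 h (366.7 ± 94.3 SD, n = 4), and its 4 highest groups were those at 48 h. Over all 9 genes 5 to 8 of the 11 neighbouring pairs overlapped, so most steps in these orders are within the spread of the arrays.

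Cit, the kinase that organises the midbody, varied widely within groups. Its brightest probe set gave 2457, 2805 and 1448 in WT at 0 h, 3299 and 1474 at 24 h, and 1046 and 581 at 48 h. In Rb1KO it ran from 1232 through a median of 1346 to 3974 at 0 h and gave 4511, 1451, 2697 and 1329 at 24 h. The arrays of 1 group thus differed by up to 3.39-fold, and no change of this probe set in the 15 comparisons passed. The nearest was the fall from 24 h to 48 h in WT (-1.46 ± 0.56 SE, limma adjusted p = 0.0579), which passed without the 4 arrays apart (0.0221). The 4 probe sets of Cit did not move alike. The third in brightness went from 422 to 513.5 at 0 h to 150.5 and 158.2 at 24 h and 66.9 and 67.7 at 48 h in WT, a fall of 1.38 on the log2 scale over the first step (limma adjusted p = 6.66e-04), where the brightest gave 0.035. In Rb1KO it fell by 1.52 (limma adjusted p = 3.54e-06), against 0.29 for the brightest. Which transcripts each probe set reads is not stated in the platform annotation used here, so no level is given for Cit as a whole.

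**Figure D4:**
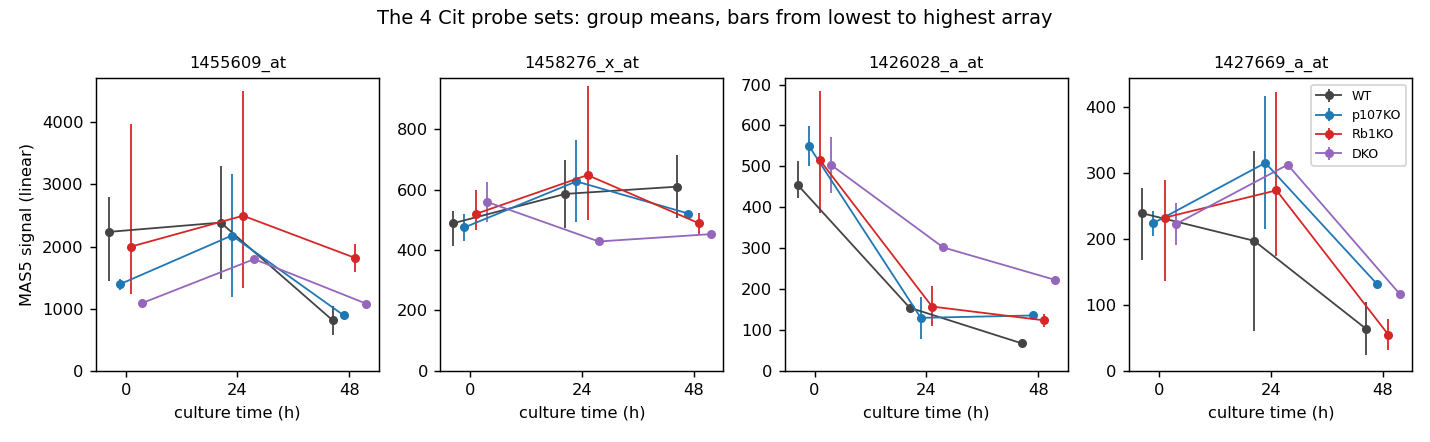
Mean MAS5 signal of the 4 Cit probe sets (linear axes from 0, each panel on its own scale) against culture time in hours by genotype, with bars from the lowest to the highest array of the group. The third panel falls between 0 h and 24 h in every genotype, from 454 to 154 in WT, whereas the first goes from 2236.5 to 2387 and then 814 in WT, with wide bars.

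Genes with several usable probe sets allowed the other results to be read a second time. Racgap1's second probe set was higher in Rb1KO at 48 h by 0.87 ± 0.15 (SE, limma adjusted p = 5.16e-04), less than the 1.77 of the brightest. Its interaction from 0 h to 48 h was 0.78 ± 0.19 (SE, limma adjusted p = 0.0227). Prc1's second probe set gave 1.07 ± 0.18 at 48 h (SE, limma adjusted p = 2.92e-04) and Kif23's gave 1.17 ± 0.33 (SE, limma adjusted p = 0.0224), both close to or above the brightest. Anln's gave 0.60 ± 0.28 (SE, limma adjusted p = 0.208), which did not pass, and in DKO against p107KO it gave 0.19 in place of 0.58 (limma adjusted p = 0.696). Ect2 and Kif20a have 1 probe set each. Averaging all probe sets of a gene, dim ones included, ended several calls, among them Racgap1 at 24 h (0.37, limma adjusted p = 0.174), Kif23 at 48 h (0.78, 0.142), and in WT the Kif20b rise to 24 h (0.18, 0.616) and the Cep55 rise after 24 h (0.47, 0.300).

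The rest of the division machinery was examined through 6 lists of related genes. Among the partners of the midzone and the mitotic kinases, 6 of 7 rose in Rb1KO against WT averaged over time, among them Kif18b (0.94 ± 0.10 SE, limma adjusted p = 2.92e-07), Cdk1, the kinase that drives mitosis (0.65 ± 0.08 SE), and the spindle protein Nusap1 (0.80 ± 0.12 SE). The chromosomal passenger complex, which carries the kinase Aurkb to the midzone, had 2 of 4 higher, Birc5 (0.44 ± 0.08 SE, limma adjusted p = 6.62e-04) and Aurkb (0.34 ± 0.10 SE, limma adjusted p = 0.0213). Their medians were 0.55 and 0.26. The contractile ring list had 1 of 13 higher, the actin nucleator Diaph3 (0.44 ± 0.11 SE, limma adjusted p = 0.00550), and 1 of 13 lower, the myosin light chain Myl12b (-0.30 ± 0.10 SE, limma adjusted p = 0.0281). Of 8 septins 2 rose, Septin8 (0.51 ± 0.10 SE) and Septin7 (0.37 ± 0.12 SE). In the abscission and ESCRT list 0 of 16 passed in limma (1 higher and 3 lower at an unadjusted p under 0.05), with a median of -0.12. These counts stand beside 18.9% over all genes tested.

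Of 9 tested genes linked to enucleation 2 rose in Rb1KO against WT averaged over time, beside 18.9% of all genes tested. They were Plek2, an actin regulator of erythroblasts (1.31 ± 0.12 SE, limma adjusted p = 4.16e-08), and Diaph3, which is on 2 lists. At an unadjusted p under 0.05, 2 were higher and 3 lower. At 48 h Plek2 was 1.83 ± 0.23 higher in Rb1KO (SE, limma adjusted p = 1.41e-05) and Foxo3 was lower (-1.09 ± 0.27 SE, limma adjusted p = 0.00833). Septin8 was 1.17 ± 0.20 higher at that time (SE, limma adjusted p = 3.70e-04). From 24 h to 48 h in WT 3 of 4 passenger genes and 5 of 7 midzone and kinase partners fell, by 0.98 on the log2 scale for Aurkb and 1.01 for Cdk1. Of all genes tested 25.2% passed at that step (12% downward). The ring list had 2 up and 2 down of 13, and the non-muscle myosin Myh10 fell by 1.41. The abscission list had 1 up and 1 down of 16, and Chmp2b rose by 0.69. In the enucleation list 5 of 9 passed (2 higher and 4 lower at an unadjusted p under 0.05), and Plek2 fell by 1.61.

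**Figure D5:**
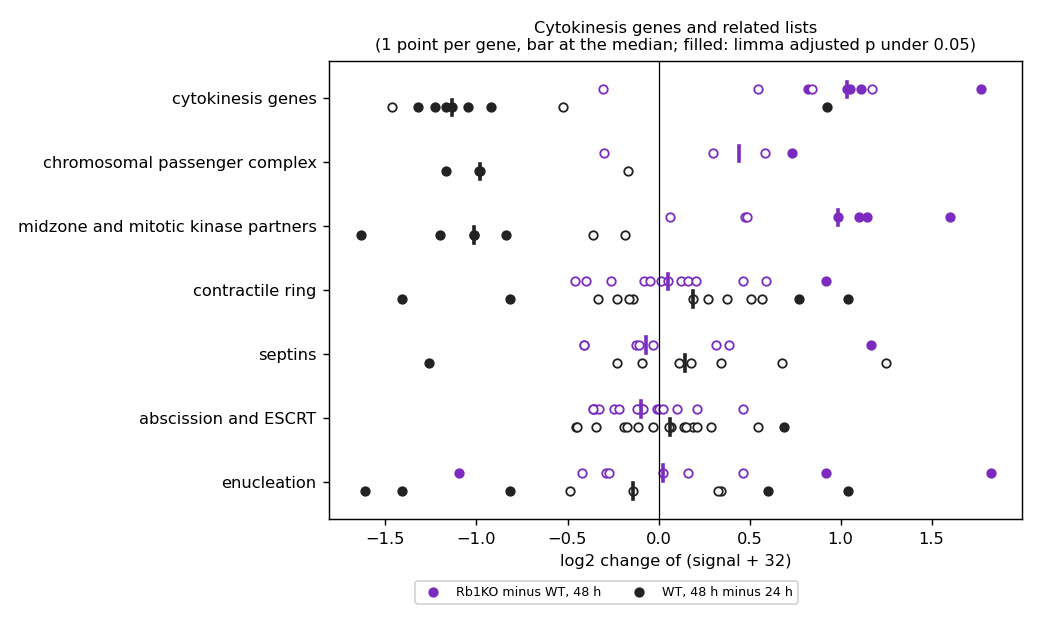
Log2 change of signal + 32 of each tested gene on the 7 lists, in Rb1KO against WT at 48 h and in WT from 24 h to 48 h, with a bar at each list's median; filled points passed a limma adjusted p of 0.05. The medians of the cytokinesis genes lie at 1.04 and -1.13, and those of the midzone and mitotic kinase partners lie close to them (0.99 and -1.01). The medians of the chromosomal passenger complex lie on the same sides of 0. Those of the contractile ring (0.055 and 0.19) and of abscission and ESCRT (-0.098 and 0.062) lie near 0.

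Likeness of profile was described over the 12 group means, which share arrays and culture times, so no p is given. Racgap1 (r = 0.95), Prc1 (0.92), Ect2 (0.90), Kif23 (0.89) and Kif20a (0.85) followed the mean of the other 8 genes most closely. Anln gave 0.66, Cit 0.47 and Kif20b 0.18, and Cep55 ran against the rest (-0.59). The closest pair was Kif23 and Prc1 (r = 0.96) and the most opposed pair Cit and Cep55 (-0.80). Outside the 9 and the lists, the genes whose group means were most like their mean profile were Brca1 and Stil (both r = 0.98), Arhgap11a (0.98), Sgo1 (0.98) and Mns1 (0.98).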

How the data were processed

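The deposited intensity values are linear MAS5 signals, and the submitters' processing notes name GCOS 1.4; the mean without the outer 2% of probe sets was 491.9 to 497.7 on every array. Median signals were 81.0 to 119.3. Arrays have no read depth, and their number limits the precision. Of 45037 probe sets, 34945 carried 1 gene symbol and were used, and the brightest by mean log2 value stood for its gene (18193 genes). Symbols were updated through the gene table of GRCm38.p6 (34741 probe sets matched). After the dimmest 40% were left out, log2(signal + 32) of 10916 genes was fitted with limma 3.58.1 (R 4.3.3), with 1 mean for each of the 12 groups over 27 arrays. The residual degrees of freedom were 15 and the prior added 7.17. Groups of 1 array borrow the spread of the others. Tests were two-sided, adjusted by Benjamini-Hochberg over the 10916 genes at a threshold of 0.05, in 15 comparisons. Errors of log2 changes are standard errors.

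The genes, lists, motifs and tests were chosen with earlier results of these data known, and the second-brightest probe sets were added after the files were seen. Named are all 9 genes, up to 4 genes a list, those with the lowest adjusted p in Rb1KO against WT averaged over time, and the 5 genes closest in profile. Listed genes without a probe set of 1 symbol (among them Ccnb1, Rock2 and Trim58) or below the filter (Kif14, Chmp4c, Hba-a1) were not tested. The replicate numbers were not taken to pair the arrays, since not every same-numbered pair deviated together. Such pairs did so more often than others, and the main fit does not take this up. Alternatives were a pseudocount of 1, no filter, quantile normalization, the mean over probe sets, a fit of the compared groups alone, a block for the replicate number, a term for Y-linked signal, and leaving out arrays. The steps were tested on simulated data. Figures were drawn with matplotlib 3.10.9.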

Additional observations from a re-analysis of the deposited data

Results flagged for a closer look

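On 2 of 18 tested sets of arrays (a gene in a group of 4 or 5) 1 array lay far from the rest by Dixon's criterion, which chance alone marks in about 1 in 20. Anln in Rb1KO at 0 h gave 9680 on replicate 5, where the other 4 arrays gave 5527 to 6048. Kif23 in Rb1KO at 24 h gave 1826 on replicate 1, where the other 3 gave 2713 to 2820. Both arrays belong to the 4 that stood apart. The Rb1KO against WT difference of Racgap1 was larger at 48 h than at 0 h by 1.61 on the log2 scale, by a test of the difference itself (limma adjusted p = 3.28e-04).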

How the results depend on the processing

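Of 135 changes of the 9 genes, 43 passed. None of these changed sign under the other fits and settings, and 2 did with the second-brightest probe set, both of Anln after 24 h (0.041 in WT and 0.024 in Rb1KO, neither past the threshold). With that probe set 8 more of 27 calls were lost, among them Prc1 at 24 h (limma adjusted p = 0.0645), Kif23 in Rb1KO after 24 h (0.148) and Racgap1 in DKO culture (0.25, 0.228). The count for Rb1KO against WT at 24 h (2) was 1 with no filter, with only the groups compared and with the replicate block, and 5 without the 4 arrays apart. Its interaction from 0 h to 48 h (1) was 2 with the replicate block and 4 without those arrays. For Rb1KO from 24 h to 48 h (5) the count was 1 with the mean over probe sets, and 3 with only the groups compared and with the replicate block. For p107KO from 0 h to 24 h (2) it was 1 with the mean over probe sets, with only the groups compared and without the 4 arrays. For DKO in culture (3) it was 1 with the mean over probe sets and 7 with only its own groups, and for Rb1KO from 0 h to 24 h (3) it was 5 without the 4 arrays. The cause was not tested.

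Leaving out 1 array in turn gave, for Rb1KO against WT, 5 to 7 averaged over time, 0 to 0 at 0 h, 0 to 3 at 24 h, 3 to 5 at 48 h, 1 to 3 for the interaction from 0 h and 0 to 0 from 24 h. It gave 0 to 0 for p107KO against WT, 2 to 6 for DKO against p107KO, and 0 to 1 for DKO against Rb1KO. In culture it gave 1 to 3 and 5 to 7 for the first and second step in WT, 3 to 4 and 2 to 6 in Rb1KO, 0 to 1 in p107KO and 1 to 2 in DKO. In p107KO, none passed without 0 h replicate 1. The numbers were not taken to pair the arrays, since not every same-numbered pair correlated above 0.1. Of these, 19 of 76 did, a higher rate than the 22 of 175 pairs of different number. In addition, 12 of 23 arrays were closest to their own number. The main fit does not take up such a pairing, and the replicate block is the setting that does. Counts over all genes moved more: at 24 h 833 became 273 with only the groups compared and 1335 without the 4 arrays, at 48 h 1132 became 595 and 1720, and DKO against Rb1KO went from 109 to between 4 (sex term) and 212 (replicate block).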
